A study of Mus musculus with 6 samples.

Results

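Globin messenger RNA was measured in mouse handpads, the embryonic forelimb plates in which digits form, at stage E14.5. The 7 globin genes described here were chosen by name: the alpha-type genes Hba-x, Hba-a1 and Hba-a2, and the beta-type genes Hbb-y, Hbb-bh1, Hbb-bs and Hbb-bt. All 7 were found among 34989 genes with transcripts in the deposited tables. The samples were 3 Grhl3 knockout handpads (Grhl3KO) and 3 wild-type handpads (WT), all of strain C57BL/6, with no other allele or agent given in the labels. The study asks how epithelial movement and the periderm, the outer cell layer of embryonic skin, contribute to digit separation. The labels do not say which part of Grhl3 is deleted, nor whether each replicate was 1 embryo or a pool, and the spread behind each p-value is that among these samples and may be technical.

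Haemoglobin carries oxygen in red cells and is built from alpha-type and beta-type chains that each hold a haem group. In the mouse embryo, the first red cells come from the yolk sac and make the embryonic chains zeta (Hba-x), epsilon-y (Hbb-y) and beta-h1 (Hbb-bh1). Red cells from the foetal liver then make the adult alpha chains (Hba-a1 and Hba-a2) and, in this strain, the adult beta chains (Hbb-bs and Hbb-bt). Maturing primitive cells also make adult chains, so the genes do not mark the lineages cleanly. Blood cells in the vessels of a tissue are the usual source of these transcripts in it.

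The alpha-type genes lie on chromosome 11 of the mouse genome (mm10) in the order of their use: Hba-x at 32276400 to 32278116, Hba-a1 at 32283511 to 32284465 and Hba-a2 at 32296489 to 32297298, all on the plus strand. The beta-type genes lie on the minus strand of chromosome 7. Hbb-y stands at 103851749 to 103853216, Hbb-bh1 at 103841637 to 103843164, Hbb-bs at 103826534 to 103828096 and Hbb-bt at 103812524 to 103813996. The main transcript of each gene has 3 exons, with a coding length of 429 bases in the alpha-type and 444 bases in the beta-type genes.

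The adult genes come in near-identical pairs, and the stretches below show how little separates them. In the coding sequence Hba-a1 and Hba-a2 differ at 1 base, C381T, and Hbb-bt and Hbb-bs at 1 base, T417C, counted from the A of the start codon. Each line gives 60 coding bases around that position, written 5′ to 3′ from the reference transcripts, with the differing base in capitals.
Hba-a1: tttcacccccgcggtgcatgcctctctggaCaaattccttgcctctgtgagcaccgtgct
Hba-a2: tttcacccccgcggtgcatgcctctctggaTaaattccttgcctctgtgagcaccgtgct
Hbb-bt: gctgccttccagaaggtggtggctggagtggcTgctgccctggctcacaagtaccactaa
Hbb-bs: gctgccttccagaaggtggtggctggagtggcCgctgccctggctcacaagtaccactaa

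Of the 31-base words in the main Hba-a2 transcript, 91.0% also occur in another of the 7 globins, against 71.3% for Hba-a1, 66.9% for Hbb-bs and 59.4% for Hbb-bt. The embryonic genes Hba-x, Hbb-y and Hbb-bh1 share none (0%) with the other members. Hba-x is 62.0% identical to Hba-a1 in coding bases, and Hbb-y is 76.4% identical to Hbb-bh1 and 74.3% identical to Hbb-bs. Values of single adult genes are therefore uncertain, and sums over each adult pair are given beside them.

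The promoters are shown as a description of the sequences. Whether they bear on the variation between libraries, described further on, was not tested. Each line gives the 120 bases before the RefSeq start of the gene (build GRCm38.p6), on the strand of the gene. Capitals mark 3 motifs searched on both strands: the CACCC box, the CCAAT box, and an ATA box with the letters ATAAA or else ATATAA. The last 2 spellings overlap where both match.
Hba-x, chr11:32276480-32276599, plus strand: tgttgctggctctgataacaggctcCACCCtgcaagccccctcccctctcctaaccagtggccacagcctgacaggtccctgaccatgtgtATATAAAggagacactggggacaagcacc
Hba-a2, chr11:32296372-32296491, plus strand: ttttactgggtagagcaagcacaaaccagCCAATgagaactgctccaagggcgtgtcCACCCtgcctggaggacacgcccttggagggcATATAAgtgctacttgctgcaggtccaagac
Hbb-y, chr7:103853208-103853327, minus strand: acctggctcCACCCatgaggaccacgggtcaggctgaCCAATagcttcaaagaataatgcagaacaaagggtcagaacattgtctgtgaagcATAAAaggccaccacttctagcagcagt
Hbb-bs, chr7:103827929-103828048, minus strand: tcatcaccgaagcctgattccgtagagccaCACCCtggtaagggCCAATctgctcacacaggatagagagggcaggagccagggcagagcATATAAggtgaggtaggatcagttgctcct
Hbb-bt, chr7:103813924-103814043, minus strand: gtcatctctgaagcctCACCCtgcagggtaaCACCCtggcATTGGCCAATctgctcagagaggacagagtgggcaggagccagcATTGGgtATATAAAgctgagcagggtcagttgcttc

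The table held 6 of the 7 promoters, all but Hbb-bh1. Identical runs were sought in longer windows of 300 bases, which also include bases after the start. In these, Hba-a1 and Hba-a2 share a run of 297 bases, so only Hba-a2 is printed. The longest identical run between Hbb-bt and Hbb-bs is 14 bases. A run ends at any mismatch, so its length does not measure likeness along the rest of the window. CACCC stood in 6 of 6 globin windows of 120 bases and in 31.7% of all 32851 promoter windows of the same length, and CCAAT in 5 of 6 and in 21.3%. ATAAA or ATATAA stood in 6 of 6 and in 21.9%, and all these motifs together in 5 of 6 and in 1.13%, with Hba-x lacking CCAAT. The letters GATAA, a core of GATA factor motifs, stood in the Hba-x window alone among the 6, and in 10.5% of all windows. A match describes the letters and shows no binding.

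The libraries held 47642524 to 56037639 estimated counts in Grhl3KO and 38052692 to 48984542 in WT, of which 203243 to 586905 fell on the 7 globins. Grhl3, the targeted gene, had 3.1, 2.86 and 2.95 CPM (counts scaled to library size) in Grhl3KO and 14.3, 45.7 and 18.5 CPM in WT (log2 fold change -3.14, SE 0.41, adjusted p = 0.0221, edgeR), and was thus lower in each library labelled Grhl3KO. This call was lost with limma-voom (adjusted p = 0.0743) and without any Grhl3KO library (0.0759 to 0.162) or WT replicate 3 (0.0806), and without WT replicate 2 the log2 fold change was -2.46 (edgeR). WT replicate 1 stood apart, with the largest share of ribosomal protein counts (8.9%, against 5.61% to 7.74% in the others) and the shortest mean transcript length (3148 bases, against 3347 to 3625). Transcripts of 4 Y-linked genes made 3.37, 4.09 and 4.4 CPM (of unscaled library totals) in Grhl3KO and 5.34, 288 and 339 in WT replicates 1, 2 and 3. Genotype is thus partly confounded with Y-linked expression, and WT replicate 1 is the only WT library on the Grhl3KO side of it.

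The adult genes made up most of the globin message, and Hbb-y was the main embryonic gene. On the TPM scale, which corrects for transcript length, the order of levels was the same in all 6 libraries: Hba-a1, Hbb-bs, Hbb-bt, Hbb-y, Hba-a2, Hba-x and Hbb-bh1. Hba-a1 (9260 to 19100 TPM) and Hbb-bs (8650 to 13300 TPM) overlapped in range over the libraries, whereas Hbb-bs and Hbb-bt (4310 to 7540 TPM) did not. Below them came Hbb-y at 1670 to 2600 TPM, Hba-a2 at 226 to 400 TPM, Hba-x at 123 to 214 TPM and Hbb-bh1 at 8.4 to 17.1 TPM, with no overlap between neighbours. Together the 7 genes took 2.63%, 3.53% and 4.26% of all TPM in Grhl3KO and 2.57%, 4.04% and 2.49% in WT.

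**Figure D1:**
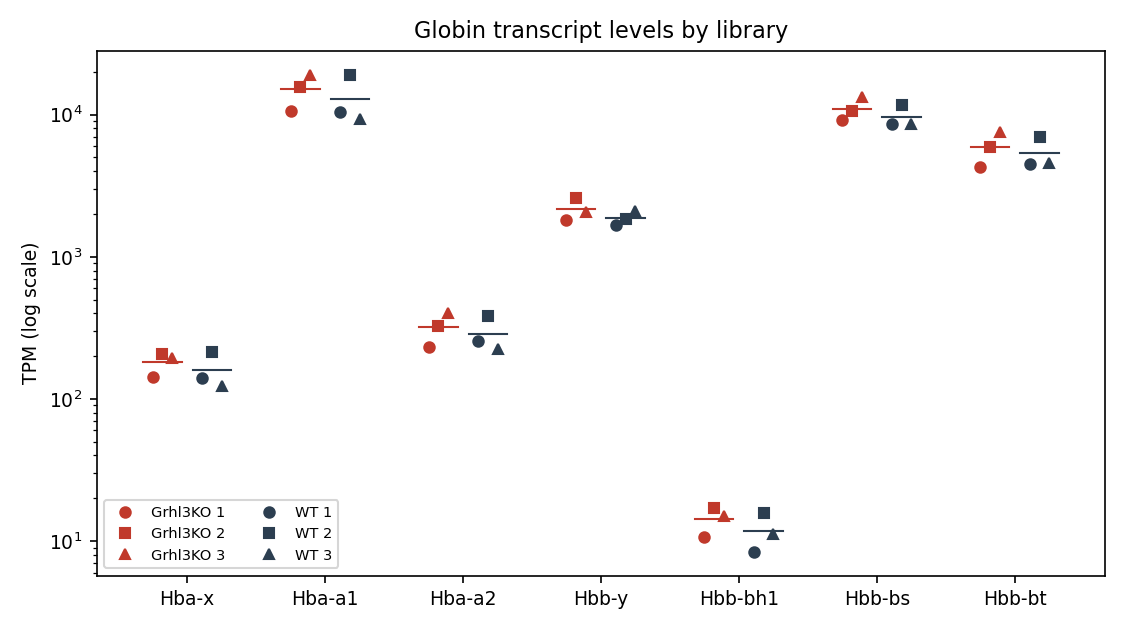
TPM of each globin gene on a log axis, with Grhl3KO libraries in red left of WT libraries in dark blue; points are libraries and lines are group means. The groups overlap for every gene, from Hba-a1 at 9260 to 19100 TPM down to Hbb-bh1 at 8.4 to 17.1 TPM.

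Hba-a1, the upstream adult alpha gene, measured 10620, 15650 and 19090 TPM in Grhl3KO and 10500, 19150 and 9255 TPM in WT. Grhl3KO replicate 3 and WT replicate 2 were high and nearly equal, and the groups overlapped. Hba-a2, its downstream copy, measured 233.1, 328.5 and 399.8 TPM in Grhl3KO and 256.9, 383.2 and 225.6 TPM in WT. It received 2.05% to 2.15% of the adult alpha TPM in Grhl3KO and 1.96% to 2.39% in WT. The main Hba-a1 transcript in the annotation begins 161 bases before the RefSeq start and the main Hba-a2 transcript 3 bases before it, so the transcripts that reads could be assigned to differ more at their ends than the coding sequences do. Whether the low Hba-a2 share reflects this assignment was not tested. A transcript of Hba-a1 with a retained intron received 2.95%, 4.86% and 4.99% of the Hba-a1 counts in Grhl3KO and 5.74%, 4.0% and 0.928% in WT, lowest in WT replicate 3. Its part of the Hba-a1 TPM was larger, at 1097, 2543 and 3072 TPM in Grhl3KO and 1699, 2724 and 350.8 TPM in WT. These values are included in the Hba-a1 levels and in the alpha shares and ratios below.

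Hbb-bs, the more abundant adult beta gene, measured 9187, 10640 and 13300 TPM in Grhl3KO and 8647, 11790 and 8672 TPM in WT. Hbb-bt, its partner, measured 4312, 5907 and 7539 TPM in Grhl3KO and 4507, 7010 and 4543 TPM in WT. For both genes Grhl3KO replicate 3 was the highest library and WT replicate 2 the next, with the remaining libraries of the groups intermixed. Hbb-bt made 31.9% to 36.2% of the adult beta TPM in Grhl3KO and 34.3% to 37.3% in WT.

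Among the embryonic genes, Hbb-y measured 1828, 2604 and 2081 TPM in Grhl3KO and 1667, 1854 and 2085 TPM in WT. Hba-x, the zeta chain gene, measured 142.5, 205.7 and 193.9 TPM in Grhl3KO and 139.5, 214.3 and 122.7 TPM in WT. Hbb-bh1 measured 10.64, 17.12 and 14.97 TPM in Grhl3KO and 8.399, 15.87 and 11.29 TPM in WT. The highest Hbb-y level was in Grhl3KO replicate 2, whereas Hba-x was highest in WT replicate 2, and the groups overlapped for all 3 genes. Hbb-y exceeded Hbb-bh1 by 172, 152 and 139 times in Grhl3KO and 198, 117 and 185 times in WT, on the TPM scale. The other genes and pseudogenes of the 2 clusters were near or at 0: Hbq1a, Hbq1b and Hbb-bh2 stayed below 0.5 CPM. Hbb-bh0 and Hbb-bh3 had 0 counts in every library, which allows up to 3 counts, or 0.0538 to 0.0793 CPM.

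**Figure D2:**
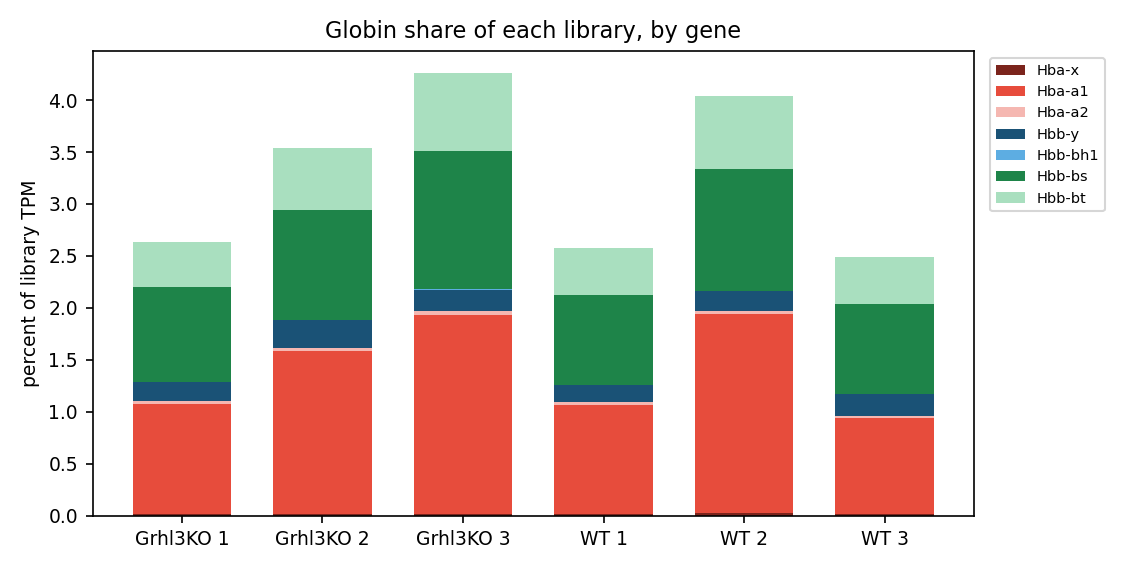
Percent of each library's TPM taken by the 7 globins, stacked by gene, with the 3 Grhl3KO libraries left of the 3 WT libraries. The totals run from 2.49% to 4.26% and the adult genes Hba-a1, Hbb-bs and Hbb-bt fill most of each bar.

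No globin gene passed the test between Grhl3KO and WT. With edgeR's quasi-likelihood test over 16938 genes, adjusted by Benjamini-Hochberg to a false discovery rate (FDR), 0 of 7 members were called at an FDR under 0.05, against 0.431% of all tested genes (0.348% higher and 0.0827% lower in Grhl3KO). None of the 7 had an unadjusted p under 0.05 (0 of 7, against 7.22% of all tested genes, 3.81% higher and 3.41% lower), and DESeq2, limma-voom and the likelihood ratio test of edgeR also called 0. For 0 of 7 members did the groups stand apart, against 12.9% of all tested genes (6.77% higher and 6.16% lower in Grhl3KO). All 7 fold changes were positive, from 0.23 to 0.38 on the log2 scale with a median of 0.27, and the median of all tested genes was -0.0045. The members were measured in the same libraries, so 7 positive signs are not 7 independent observations, and 5 of 7 were positive without Grhl3KO replicate 3 and 6 of 7 without WT replicate 3. In bulk tissue, more or fewer red cells and more or less globin RNA per red cell cannot be told apart.

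Summed over the 7 genes, globin stood at 6110, 8280 and 10700 CPM in Grhl3KO and 7320, 8260 and 5140 CPM in WT. The group means were 8350 ± 2290 CPM in Grhl3KO and 6910 ± 1600 CPM in WT (SD, n = 3 each). The mean log2 level differed by 0.265 (p = 0.4, two-sided exact permutation test, where 3 against 3 libraries cannot go below 0.1). WT replicate 1, the WT library with low Y-linked counts, lay inside the Grhl3KO range at 7320 CPM. The log2 difference was 0.0701 without Grhl3KO replicate 3, 0.0664 without WT replicate 3, 0.409 without WT replicate 2 and 0.473 without Grhl3KO replicate 1.

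Hbb-y had the smallest p-value of the 7, with 374, 545 and 466 CPM in Grhl3KO and 430, 333 and 369 CPM in WT. Its log2 fold change was 0.29 (SE 0.16, 95% interval -0.08 to 0.66, adjusted p = 0.81, edgeR). Hbb-bh1 had the largest fold change, 0.38 (SE 0.26, interval -0.21 to 0.96, adjusted p = 0.888, edgeR), at 1.97, 3.24 and 3.04 CPM in Grhl3KO and 1.98, 2.57 and 1.8 CPM in WT. For Hba-x it was 0.27 (interval -0.23 to 0.77), for Hba-a1 0.29 (-0.37 to 0.96) and for Hbb-bs 0.27 (-0.23 to 0.76). The upper bounds for the 4 adult genes thus lay between 0.76 and 0.96 log2 units, and all 7 intervals included 0.

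The pairs gave the same picture when their near-identical copies were counted together. Hba-a1 plus Hba-a2 had 2670, 3830 and 4990 CPM in Grhl3KO and 3130, 4100 and 2150 CPM in WT, and its log2 fold change was 0.29 (adjusted p = 0.952, edgeR; SE 0.29). Hbb-bt plus Hbb-bs had 3010, 3820 and 5140 CPM in Grhl3KO and 3690, 3750 and 2580 CPM in WT, and its log2 fold change was 0.26 (adjusted p = 0.947, edgeR; SE 0.24). The authors' deposited table of this comparison lists 941 genes with p-values up to 0.0506, and 0 of the 7 globins are among them.

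**Figure D3:**
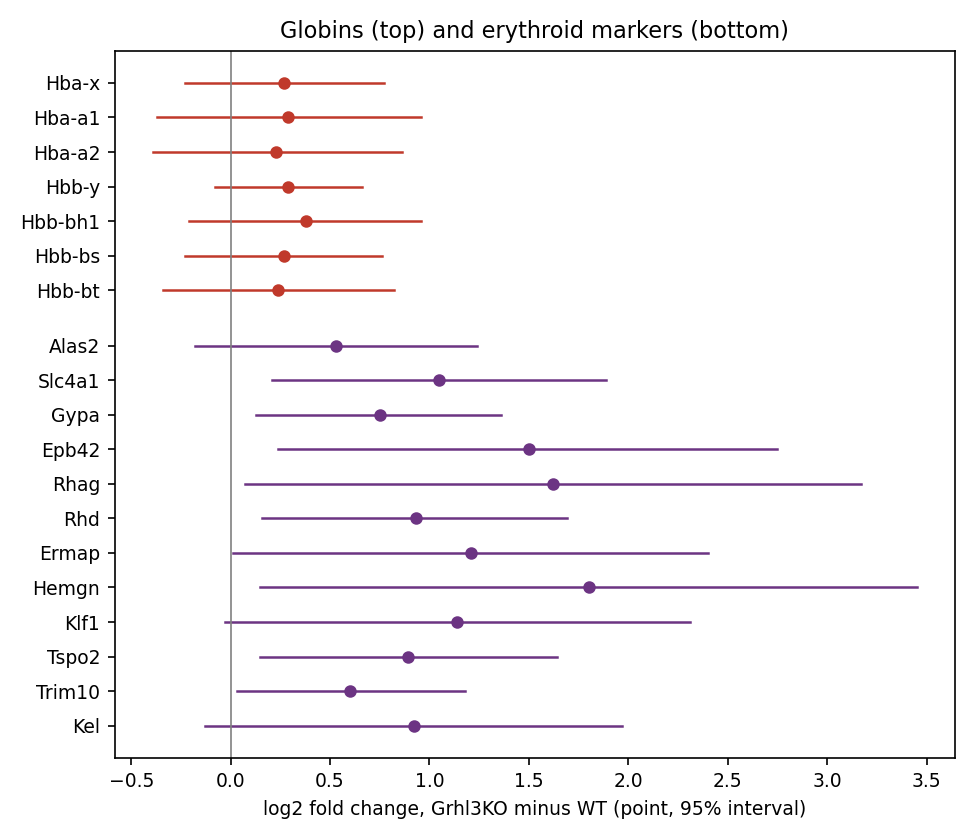
Log2 fold change of Grhl3KO minus WT with its 95% interval for the 7 globins (red, top) and 12 of the 13 tested erythroid markers (purple, bottom). All points lie right of 0; the globins stay between 0.23 and 0.38 with intervals that cross 0, and none of either set passed the FDR threshold of 0.05.

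On the TPM scale the embryonic share of alpha globin was near 1% in every library and did not separate the genotypes. By estimated counts, without length correction, it was 1.53% to 1.98%. The main Hba-x transcript begins 200 bases before the RefSeq start, and the effect of this on its TPM was not tested. Hba-x made 1.3%, 1.27% and 0.985% of the alpha TPM in Grhl3KO and 1.28%, 1.09% and 1.28% in WT. The means were 1.18 ± 0.172% in Grhl3KO and 1.21 ± 0.112% in WT (SD, n = 3 each), a difference of -0.0306 percentage points (p = 0.8, two-sided exact permutation test). The sign of this difference turned without Grhl3KO replicate 3 (0.0687), WT replicate 1 (0.00233) or WT replicate 3 (0.00088).

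The embryonic share of beta globin was larger than that of alpha globin in every library. Hbb-y and Hbb-bh1 made 12.0%, 13.7% and 9.14% of the beta TPM in Grhl3KO and 11.3%, 9.05% and 13.7% in WT. Grhl3KO replicate 3 and WT replicate 2 had the lowest shares, and these libraries also had the most adult globin. The means were 11.6 ± 2.29% in Grhl3KO and 11.3 ± 2.32% in WT (SD, n = 3 each), a difference of 0.255 percentage points (p = 0.8, two-sided exact permutation test). The sign turned without Grhl3KO replicate 2 (-0.783) or WT replicate 2 (-0.895). Counting error was small beside this spread: the Wilson 95% intervals of the count shares reached at most 0.09 percentage points to each side for alpha and 0.19 for beta, and cover counting error only.

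Alpha-type message stood below beta-type message in all 6 libraries on the TPM scale. By estimated counts, without length correction, WT replicate 2 had more alpha (208101) than beta (203803). The ratio of alpha to beta TPM was 0.717, 0.844 and 0.858 in Grhl3KO and 0.735, 0.955 and 0.627 in WT. WT held both the highest and the lowest ratio, and the mean log2 ratio differed by 0.08 (p = 0.7, two-sided exact permutation test). Without WT replicate 3 this difference was -0.0591. The 5 values tested in this way (the summed level, both embryonic shares, this ratio and the level relative to erythroid markers, below) had Benjamini-Hochberg adjusted p-values of 0.5 to 0.8.

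**Figure D4:**
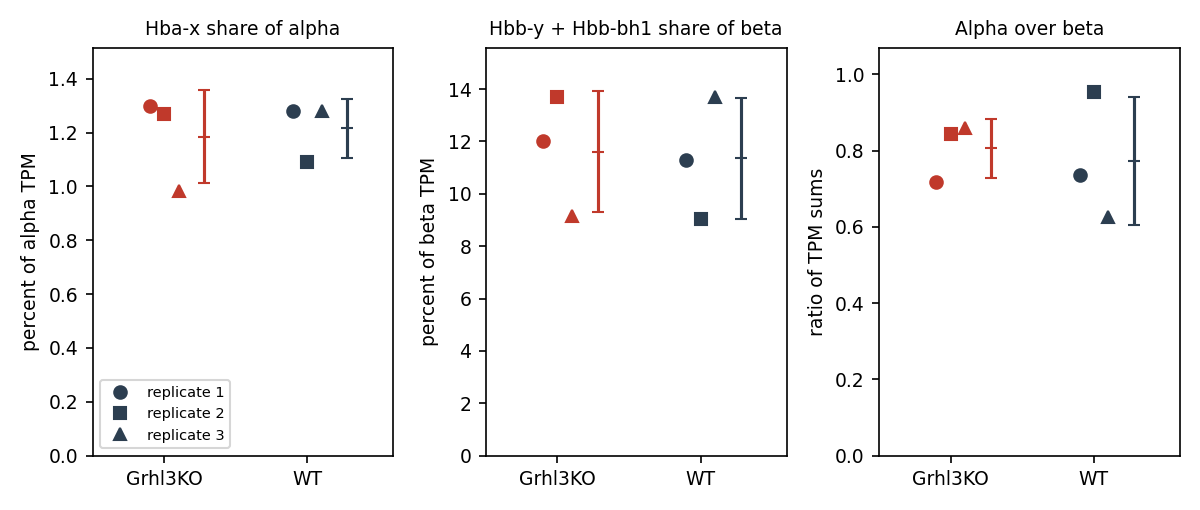
Embryonic percent of alpha and of beta globin TPM and the ratio of alpha to beta TPM, with Grhl3KO left of WT; points are libraries (symbols give the replicate) and bars are mean and SD of 3. The groups overlap in each panel, with alpha shares of 0.985% to 1.3% and beta shares of 9.05% to 13.7%.

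Between libraries, the adult genes, Hba-x and Hbb-bh1 varied together and Hbb-y less so. Over the 6 libraries, log2 CPM of Hba-a1 correlated with Hbb-bt at r = 0.98, with Hba-x at 0.95, with Hbb-bs at 0.92 and with Hbb-bh1 at 0.88, but with Hbb-y at 0.4. Hbb-y correlated with the other members at 0.4 to 0.63. It also had the narrowest range, its highest library having 1.64 times the CPM of its lowest, against 1.81 to 2.36 times for the other 6 genes. These correlations describe 6 libraries that share depth and scaling, and the adult copies share reads as well.

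Among 13435 other genes whose log2 CPM averaged 1 or more, those most like the summed adult globins over the 6 libraries were Rbm43, Ddx41, Prkd2, Plbd2, Ncln and Hoxc10, with r of 0.9847 to 0.9689. None of the 6 is in the erythroid lists used here. Alas2, the erythroid enzyme that starts haem synthesis, ranked 53rd at r = 0.92. Those most like the summed embryonic globins were Mlycd, Dmtn, Nudt10, Zfp688, Lrrc20 and Slc37a4 (r = 0.996 to 0.9664), of which Dmtn encodes dematin, a protein of the red cell membrane skeleton. These correlations were picked as the highest of 13435 over 6 libraries and are a description only.

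Alas2 was the only haem synthesis gene that is specific to red cells, and it varied with the adult globins (r = 0.92) more than with the embryonic ones (r = 0.45): 49.0, 64.0 and 94.9 CPM in Grhl3KO and 40.1, 70.4 and 32.9 CPM in WT (log2 fold change 0.53, SE 0.31, adjusted p = 0.832, edgeR). Of 12 haem synthesis genes, 1 rose and 0 fell, against 0.348% and 0.0827% of all tested genes, with a median of 0.05. The gene that rose was Alad, which encodes the second enzyme of the pathway and is used in many tissues. It had 60.2, 69.0 and 65.6 CPM in Grhl3KO and 40.4, 33.7 and 31 CPM in WT, with no overlap (log2 fold change 0.89, SE 0.12, adjusted p = 0.0221, edgeR). Alad lies on chromosome 4, as Grhl3 does, but far from it, at 62509169 to 62519918 against 135541888 to 135573630 for Grhl3. Rhd, one of the erythroid markers below, lies much nearer to Grhl3, at 134864536 to 134896172. It had 1.81, 4.21 and 2.22 CPM in Grhl3KO and 1.58, 1.52 and 1.21 CPM in WT, without overlap. Whether position on the chromosome bears on these values was not tested. The call of Alad was lost without any 1 library other than WT replicate 1, with log2 fold changes of 0.81 to 0.94 in those fits. Rhd was not called in the main fit (adjusted p = 0.533, edgeR). Of 7 genes for iron uptake and haem transport, 0 were called and 0 had an unadjusted p under 0.05 (edgeR); DESeq2 and the likelihood ratio test called 0 of the 3 followed, Hebp1, Flvcr1 and Slc11a2.

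Other markers of red cells, most of them genes of precursors that still have active nuclei, stood further from equality than the globins but did not pass the test either. All 13 tested erythroid markers had positive fold changes, with a median of 1.05, and 10 had an unadjusted p under 0.05, against 3.81% of all tested genes in that direction. None of the 13 was called with edgeR or limma-voom, and DESeq2 called 1. Slc4a1, the anion exchanger band 3, had 16.2, 46.1 and 25.0 CPM in Grhl3KO and 9.82, 18.3 and 14.0 CPM in WT (1.05, SE 0.37, adjusted p = 0.493, edgeR).

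A single library, Grhl3KO replicate 2, carried much of this. Hemgn, a nuclear protein of erythroid precursors, had 1.14, 6.63 and 0.891 CPM in Grhl3KO and 0.713, 0.822 and 0.936 CPM in WT, and Rhag, a membrane protein of the Rh complex, had 0.528, 2.65 and 0.509 CPM in Grhl3KO and 0.264, 0.461 and 0.455 CPM in WT. Without Grhl3KO replicate 2, the median of the 13 markers was 0.48, and 1 instead of 10 had an unadjusted p under 0.05. Without WT replicate 3 the number was also 1, at a median of 0.95. In 3 of the 13 markers the groups did not overlap with Grhl3KO higher, against 6.77% of all tested genes.

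Of 17 red cell membrane genes, which include 8 of these markers, 0 were called with edgeR. All 17 had positive fold changes, against 8263 of 16938 tested genes, and 9 had an unadjusted p under 0.05 (all higher, against 3.81% of all tested genes). Without Grhl3KO replicate 2 or WT replicate 3, the 9 became 1. Of 13 tested haemoglobin partner genes and erythroid enzymes, 0 were called with edgeR, 4 had an unadjusted p under 0.05 (all higher, against 3.81% of all tested genes) and the median was 0.25. All of these 4 but Car2 are also among the erythroid markers above, so they are not a further set of genes. The 4 became 1 without Grhl3KO replicate 2 or WT replicate 3, and 2 without Grhl3KO replicate 3 or WT replicate 2. Car2, a red cell carbonic anhydrase also made elsewhere, had 16.7, 28.3 and 13.0 CPM in Grhl3KO and 10, 10.8 and 8.73 CPM in WT (log2 fold change 0.97, adjusted p = 0.301, edgeR), and DESeq2 called it (adjusted p = 0.0157). Of 19 regulators of globin genes and erythroid growth, 0 were called with edgeR and the median was 0.05. Of these, 3 had an unadjusted p under 0.05 (all higher, against 3.81% of all tested genes). The 3 became 1 without Grhl3KO replicate 2, Grhl3KO replicate 3 or WT replicate 3, and 5 without Grhl3KO replicate 1. Gata1, the erythroid and megakaryocyte GATA factor, had the smallest p-value of these, with 1.99, 2.67 and 2.26 CPM in Grhl3KO and 1.19, 1.28 and 0.911 CPM in WT, without overlap (log2 fold change 1.03, SE 0.24, adjusted p = 0.196, edgeR). DESeq2 (adjusted p = 0.0308) and the likelihood ratio test (adjusted p = 0.0328) called Gata1. Klf1, the activator of adult beta globin, had 0.994, 3.94 and 1.87 CPM in Grhl3KO and 0.766, 1.54 and 0.734 CPM in WT. The repressors of embryonic globin Bcl11a and Sox6 measured 97.8, 100 and 90.7 CPM and 57.0, 62.3 and 39.0 CPM in Grhl3KO, and 94.7, 111 and 93.8 CPM and 48.2, 63.0 and 72.1 CPM in WT, and both are also expressed outside blood. Their log2 fold changes were -0.05 and -0.21. Rhag, Rhd, Klf1, Bcl11a and Sox6, and Epb41 and Aqp1 below, were named after their values were seen.

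Relative to the summed counts of the erythroid markers, globin was lower in Grhl3KO. There were 70.2, 48.4 and 70.9 globin counts per marker count in Grhl3KO and 109, 74.3 and 80.8 in WT, without overlap. The log2 difference was -0.482 (p = 0.1, the smallest that this two-sided exact permutation test allows, and 0.5 when adjusted over the 5 values tested). With the red cell membrane list as the denominator the difference was 0.047 (exact p = 0.9), so the result depends on which genes form the denominator. Epb41 and Aqp1 made most of the membrane sum, with 183 and 125 of 416 CPM in Grhl3KO replicate 1, against 16.2 CPM for Slc4a1. How much of that sum came from red cells was not tested.

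**Figure D5:**
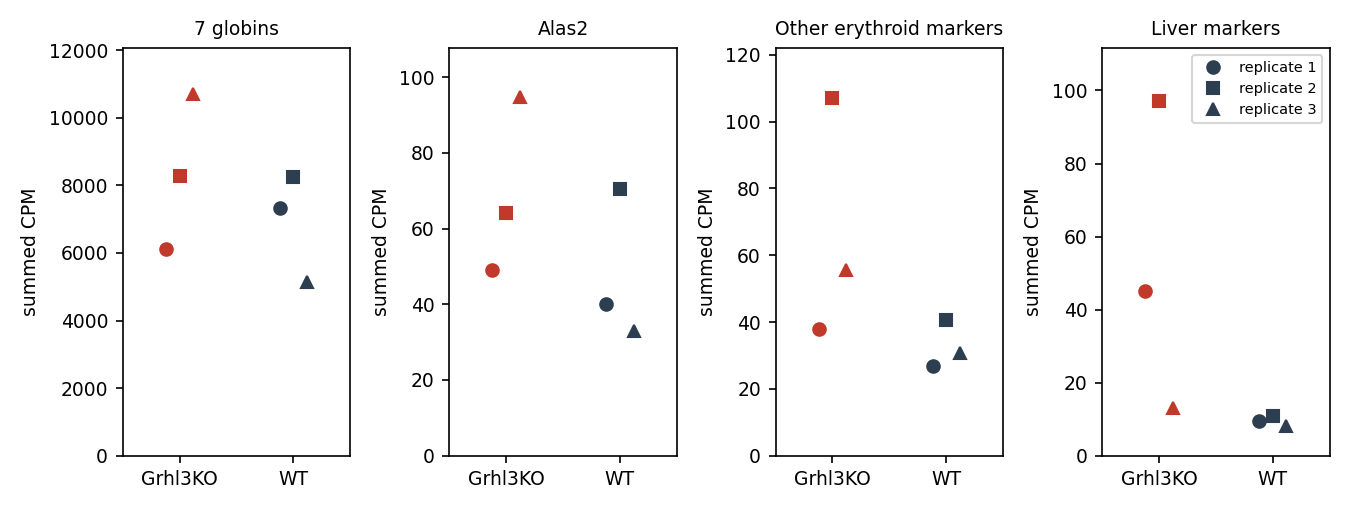
Summed CPM of the 7 globins, of Alas2, of the other erythroid markers and of liver markers, with Grhl3KO left of WT; symbols give the replicate, and each axis starts at 0. Globins and Alas2 are highest in Grhl3KO replicate 3, whereas the other erythroid markers (107) and the liver markers (97.1) are highest in Grhl3KO replicate 2.

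Liver markers were higher in all 3 Grhl3KO libraries than in WT, most in Grhl3KO replicate 2, which also had the most counts of erythroid markers other than Alas2. The order of the other 2 Grhl3KO libraries differed between these sums. The 10 liver markers summed to 45.0, 97.1 and 13.0 CPM in Grhl3KO and 9.4, 10.8 and 8.24 CPM in WT, and erythroid markers other than Alas2 to 38.0, 107 and 55.7 CPM in Grhl3KO and 26.8, 40.7 and 30.7 CPM in WT. Afp, the foetal plasma protein alpha-fetoprotein, had 16.1, 37.7 and 2.6 CPM in Grhl3KO and 1.16, 1.36 and 0.986 CPM in WT (log2 fold change 3.99, SE 0.82, adjusted p = 0.129, edgeR). The likelihood ratio test and DESeq2 called Afp, with adjusted p-values of 6.76e-05 and 0.00271. All 8 tested liver markers had positive fold changes, 7 with an unadjusted p under 0.05 (all higher, against 3.81% of all tested genes). With edgeR's quasi-likelihood test 0 of the 8 were called. Without Grhl3KO replicate 3, 10 liver markers were tested and 2 were called. The likelihood ratio test and DESeq2 also called Alb (adjusted p = 0.00101 and 0.0187) and Ahsg (0.0111 and 0.00755), which encode plasma proteins. The foetal liver makes most red cells at this age, and the part of liver RNA in the erythroid values was not tested. The summed globins stood at 6110, 8280 and 10700 CPM in the same Grhl3KO libraries and 7320, 8260 and 5140 CPM in WT, and the part of liver RNA in them was not tested either.

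Markers of the other cells that accompany red cells in vessels had smaller median log2 fold changes than the erythroid markers (1.05). The medians were 0.35 for platelet and megakaryocyte, 0.18 for endothelial and 0.12 for macrophage and leukocyte markers, against 0.27 for the globins. The 10 platelet and megakaryocyte markers summed to 13.5, 14.8 and 19.6 CPM in Grhl3KO and 16.3, 13.9 and 14.1 CPM in WT, with 0 called (edgeR) and 0 at an unadjusted p under 0.05. The 12 endothelial markers summed to 590, 595 and 653 CPM in Grhl3KO and 540, 546 and 539 CPM in WT, with 0 called (edgeR). Of the 12, 11 had positive fold changes and 2 were higher at an unadjusted p under 0.05, against 3.81% of all tested genes. In 5 of the 12 the groups did not overlap with Grhl3KO higher, against 6.77% of all tested genes. The 12 macrophage and leukocyte markers summed to 166 to 234 CPM in Grhl3KO and 153 to 206 CPM in WT, with 0 called (edgeR) and 0 at an unadjusted p under 0.05. DESeq2 and the likelihood ratio test were not summarised for these 3 lists. The endothelial sums did not overlap between the groups, and their part in the globin values was not tested. Globins outside red cells were low: myoglobin (Mb), the oxygen store of muscle, had 2.62, 2.21 and 4.17 CPM in Grhl3KO and 3.96, 1.62 and 2.68 CPM in WT. Cytoglobin (Cygb), found in fibroblast-like cells, had 13.8, 14.8 and 19.6 CPM in Grhl3KO and 17.4, 13.0 and 11.4 CPM in WT. Neuroglobin (Ngb), the globin of neurons, had 0.142, 0.147 and 0.2 CPM in Grhl3KO and 0.396, 0.381 and 0.278 CPM in WT, without overlap, and its log2 fold change of -1.09 missed the threshold (edgeR adjusted p = 0.484).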

How the data were processed

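Stranded poly(A) libraries (TruSeq Stranded mRNA, per the labels' protocols) were quantified by the authors with kallisto on mm10, per the submitters' processing notes; its version is not given in the sources used here. The deposited tables, per the file headers, hold an estimated count and a TPM for each of 111462 transcripts, with length and effective length. For each listed gene, the authors' deposited comparison holds log2 values (the fold change and mean CPM), the likelihood ratio as a score, and a p-value with its FDR. Transcripts were matched by unversioned identifier to GENCODE vM21 (GRCm38, the same build): 110203 matched and 1259 did not, holding 0.504% to 0.566% of the counts of a library. Estimated counts and TPM were summed per gene, and counts rounded to whole numbers.

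Genes were tested with edgeR 4.0.16 (R 4.3.3; TMM; filterByExpr, minimum count 10 and total 15; glmQLFit and glmQLFTest; genotype only; FDR under 0.05). SE is the fold change over the root of F, and intervals use the degrees of freedom of the fit. CPM uses TMM-scaled library sizes. Embryonic shares and chain ratios use TPM, with exact permutation tests over libraries (scipy 1.17.1). The code was tested on simulated data. Alternatives included DESeq2 1.42.0, limma-voom (limma 3.58.1), other scalings and filters, length offsets, summed copies, a replicate block and each library left out. Named genes are the 7 members, up to 3 per erythroid, liver or globin list with the smallest p-values, and the 6 most correlated genes per globin sum. Members and lists were chosen with earlier results of these data known. Reads carry no molecular identifiers. Ahsp and Mfsd7b of the lists are not analysed here, and 1 further gene is counted in its lists but not reported here.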

Additional observations from a re-analysis of the deposited data

How the results depend on the processing

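The count of called globins was 0 in the main fit and under all 17 alternatives run, and the lowest adjusted p of any globin was 0.231, without WT replicate 1. With 3 libraries per group the exact tests cannot go below 0.1, so they say little about stability. The count of called erythroid markers was 0 except with DESeq2 (1). Over all genes 73 were called; the count was 118 with no filter, 299 with DESeq2, 260 with the likelihood ratio test, 45 with limma-voom, 45 with effective length offsets and 10 to 206 with 1 library left out. Same-numbered libraries gave no sign of pairing, as their deviations from the group means correlated at -0.244, -0.092 and -0.162. Such deviations sum to 0 over the 3 libraries of a group, so these values cannot exclude pairing. A fit with the replicate block called 47 genes, 0 globins and 0 erythroid markers. Alad was not among its calls (log2 fold change 0.9, adjusted p = 0.0911, edgeR). Within replicate numbers the summed globin level differed by 0.265 log2 units (exact p = 0.75), the alpha share by -0.0306 points (1.0), the beta share by 0.255 points (0.75), the chain ratio by 0.08 (1.0) and the level relative to erythroid markers by -0.482 (0.25), where 3 pairs cannot go below 0.25. With 1 library left out, the difference ran from -0.0951 to 0.0687 points for the alpha share, -0.895 to 1.49 points for the beta share and -0.0591 to 0.244 for the log2 chain ratio, and -0.595 to -0.301 for the level relative to erythroid markers. The log2 fold change ran from -0.01 to 0.44 for Hba-a2, -0.02 to 0.44 for Hbb-bt and -0.18 to 0.49 for Mb. With the red cell membrane list as denominator the relative globin level differed by 0.047. The count of erythroid markers at an unadjusted p under 0.05 was 10 of 13 and became 1 without Grhl3KO replicate 2 or WT replicate 3. The cause of these changes was not tested.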
